A study of Rattus norvegicus with 2 samples.

Results

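The genes described here carry sodium reabsorption in the distal nephron of the kidney. They are the epithelial sodium channel subunits Scnn1a, Scnn1b and Scnn1g, the mineralocorticoid receptor Nr3c2, the steroid enzyme Hsd11b2, the kinase Sgk1, the ubiquitin ligase Nedd4l and the sodium pump subunit Atp1b1. They were chosen by name, because PPAR-gamma agonists are known to cause fluid retention, at a time when earlier results of these data were known. Of the 8 genes, 7 had at least 1 probe on the array by RefSeq accession, and Nedd4l had none and is not analysed here. The 7 genes were read by 9 of 40998 probes and by 36 of 43379 spots, and all 7 counted among the 10484 measured genes of 13435 named ones.

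Treated kidneys came from female PCK rats given pioglitazone, a PPAR-gamma agonist, at 10 mg/kg by gavage daily, starting at 4 and ending at 20 weeks of age. Control kidneys came from female PCK rats given vehicle with 0.5% DMSO in the same way. Both groups carry the Pkhd1 mutation of the PCK strain, whose kidneys become cystic, and rats without it are not analysed here. The RNA of whole kidneys was combined into 1 pool a group, read on 1 array each, so that no difference has a replicate check and no p-value was computed. The labels state pools of 5 females in one place and RNA from 3 rats in another.

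The epithelial sodium channel is built of alpha, beta and gamma subunits (Scnn1a, Scnn1b and Scnn1g) and sits in the apical membrane of connecting tubule and collecting duct principal cells. Aldosterone binds the mineralocorticoid receptor (Nr3c2), while Hsd11b2 inactivates glucocorticoids that would otherwise occupy the same receptor. The receptor induces Sgk1, a kinase that restrains Nedd4l, and Nedd4l marks channels for removal from the membrane. Sodium that enters through the channel leaves across the basolateral membrane through the sodium-potassium ATPase, whose beta subunit is Atp1b1.

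Both arrays lay on 1 slide and were read in 1 scan, per the file headers. Of the spots that are no controls, 73.1% on the pioglitazone array and 71.8% on the vehicle array were well above background, and 0 were saturated on either. Markers of several nephron segments were bright. The thick ascending limb gene Umod had processed signals of 220000 with pioglitazone and 195000 with vehicle, the principal cell water channel Aqp2 had 12925 and 15461, and the proximal phosphate transporter Slc34a1 had 25900 and 23900. Signals were divided by each array's 75th percentile, which removed a shift of 0.08 on the log2 scale. All differences below are log2 values after this step, pioglitazone minus vehicle. The spread over all measured genes serves as background: the median difference was 0.03, 57.1% of genes had a positive one, and the 5th and 95th percentiles were -0.40 and 0.33.

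Across the pathway, the channel subunits and Hsd11b2 had slightly higher signals with pioglitazone, Sgk1 had a lower one, and the receptor and the pump subunit lay close to 0. The difference was 0.27 for Scnn1a, 0.12 for Scnn1b, 0.19 for Scnn1g, 0.19 for Hsd11b2 and -0.32 for Sgk1. It was 0.03 for Nr3c2 and 0.08 for Atp1b1. No gene of the 7 met the criterion of a 1.5-fold difference that also exceeds 2 times the technical error of the spots. Among all 10484 measured genes, 0.792% met it as higher and 1.7% as lower, or 83 and 178 genes. That split followed the scaling, with 107 higher and 133 lower under median scaling and 130 and 117 in the unscaled table. The technical error was 0.20 for each of the 7 genes, and it holds no spread between animals.

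**Figure D1:**
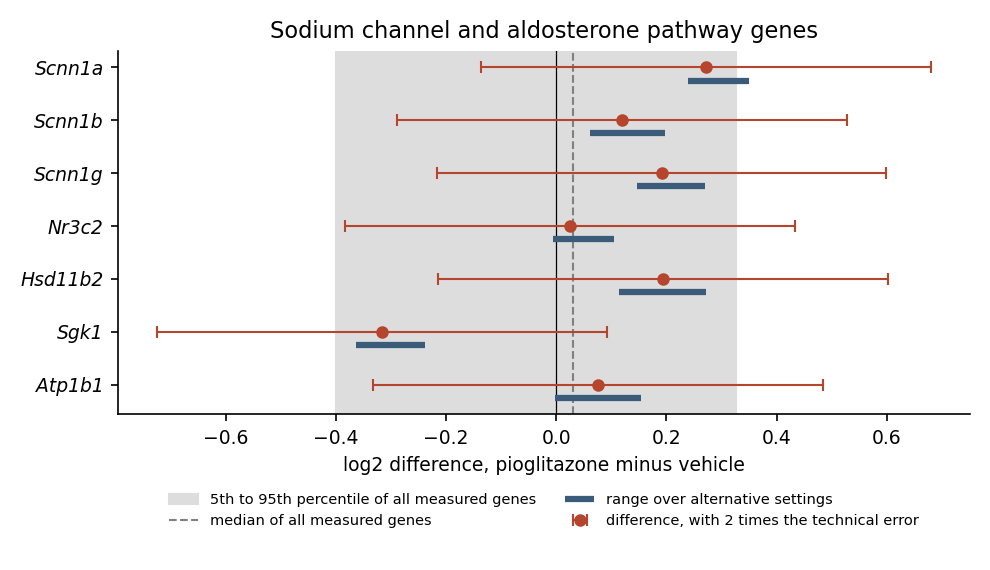
Log2 difference between the pioglitazone and the vehicle array for the 7 measured genes, with bars of 2 times the technical error, the range over alternative settings as a thick line under each point, and the 5th to 95th percentile of all measured genes in grey. All 7 points lie inside the grey band from -0.40 to 0.33, and every error bar crosses 0.

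Scnn1b and Scnn1g lie next to each other on rat chromosome 1. Their RefSeq promoter windows (GRCr8, 250 bases before to 50 after the transcript start, plus strand) are shown because they are the channel subunits that the table of windows holds. Capitals mark the letters TGACCT, which with AGGTCA on the other strand spell the nuclear receptor half-site that recurs in PPAR response elements.
Scnn1b, chr1:185861126-185861425: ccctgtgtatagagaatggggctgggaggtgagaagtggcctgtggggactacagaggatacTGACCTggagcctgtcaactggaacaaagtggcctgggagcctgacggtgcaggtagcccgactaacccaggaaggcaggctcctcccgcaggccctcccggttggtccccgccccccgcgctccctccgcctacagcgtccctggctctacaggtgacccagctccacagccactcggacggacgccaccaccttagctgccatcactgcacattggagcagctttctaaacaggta
Scnn1g, chr1:185735975-185736274: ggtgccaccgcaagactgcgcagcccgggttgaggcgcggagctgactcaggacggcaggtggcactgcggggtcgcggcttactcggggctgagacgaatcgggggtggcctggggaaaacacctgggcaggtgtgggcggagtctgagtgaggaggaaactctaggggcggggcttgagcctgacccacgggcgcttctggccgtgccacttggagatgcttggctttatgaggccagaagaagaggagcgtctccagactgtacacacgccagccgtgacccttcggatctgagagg
The Scnn1b window held 1 such half-site, beginning 188 bases before the transcript start, and the Scnn1g window held 0. Of 33469 promoter windows of the same length, 16.2% held at least 1 on either strand. The steroid receptor half-site, AGAACA or TGTTCT, was found 0 times in either window and in 20.7% of all windows. The 3 windows of Sgk1 and the 1 of Nedd4l held 0 of either half-site. Scnn1a, Hsd11b2, Nr3c2 and Atp1b1 are not in the table of windows. These matches describe letters, and no binding was measured.

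The channel subunits were the best measured genes of the pathway, since 1 probe of each was printed 10 times on the array. Scnn1a encodes the alpha subunit, which is needed for channel assembly and is the subunit that aldosterone induces in the kidney. In its brighter probe (A_43_P12580), the 9 spots without an outlier flag had a lowest signal of 1360, a median of 1490 and a highest of 1530 with pioglitazone, against 1070, 1150 and 1220 with vehicle. After vehicle signals were brought to the scale of the pioglitazone array, the means were 1468 ± 57.8 with pioglitazone and 1216 ± 45.6 with vehicle (SD over 9 spots each). The spots of the arrays did not overlap, and the difference was 1.21-fold. A second Scnn1a probe (A_44_P1070856), read from 1 dim spot, had a signal of 57.4 with pioglitazone and 42.9 with vehicle, a difference of 0.34.

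Scnn1g encodes the gamma subunit, whose cleavage by proteases opens the channel further. The 10 spots of its probe (A_44_P226658) had a lowest signal of 2660, a median of 2850 and a highest of 3170 with pioglitazone, against 2270, 2350 and 2490 with vehicle. The scaled means were 2853 ± 140 with pioglitazone and 2497 ± 63.0 with vehicle (SD over 10 spots each), a 1.14-fold difference. The highest scaled vehicle spot, at 2629, lay just below the lowest pioglitazone spot.

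Scnn1b encodes the beta subunit, which carries a binding motif for Nedd4l, as the other subunits do. The 9 spots of its probe (A_42_P817086) without a flag had a lowest signal of 7460, a median of 7640 and a highest of 8270 with pioglitazone, against 6420, 6800 and 7000 with vehicle. The scaled means were 7728 ± 257 with pioglitazone and 7114 ± 186 with vehicle (SD over 9 spots each), the smallest difference of the subunits at 1.09-fold. The highest scaled vehicle spot was at 7392, and with the flagged spots kept the groups overlapped.

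**Figure D2:**
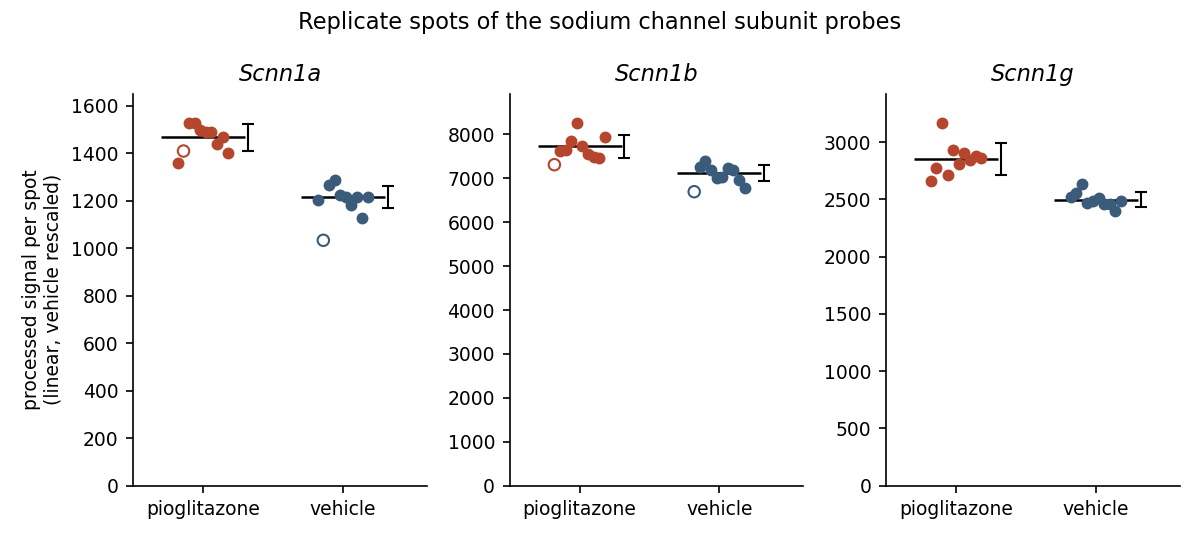
Processed signal of every replicate spot (linear scale from 0) for the probes of Scnn1a, Scnn1b and Scnn1g printed 10 times, pioglitazone on the left and vehicle, rescaled to the pioglitazone array, on the right. Lines and bars give the mean and SD over spots without an outlier flag, and open circles are flagged spots; the pioglitazone mean is above the vehicle mean in each panel, with 1468 against 1216 for Scnn1a.

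All 29 unflagged spots of the subunits, the second Scnn1a probe included, had a positive difference, where 53.2% of 30558 spots well above background on both arrays did. Spots of 1 probe repeat the same reading, so these are not 29 separate results. By gene, 3 of 3 subunits were positive, where 57.1% of all measured genes were. For the probes printed 10 times, 3 of 3 subunit probes had every pioglitazone spot above every vehicle spot. Of the 206 such probes with all spots well above background, the subunits included, 34 (16.5%) did. In another 29 of the 206, every pioglitazone spot lay below every vehicle spot. The separation of the subunit probes, a measure added after the data were seen, depended on the scaling. Only Scnn1a kept it under quantile scaling and cyclic loess, and none under normexp correction. Replicate spots are technical repeats of 1 pooled RNA on 1 array, so that they measure the reading of the array and not the spread between rats. The SD of the difference over replicate spots was 0.06 for Scnn1a and 0.07 for Scnn1b and Scnn1g. The software's error was 0.20 for each of them, whatever the spread of their spots.

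Set against single genes, these differences were ordinary to moderately large. A difference at least as high as that of Scnn1a was seen in 831 of the measured genes (7.93%), and in 5.10% of the 1215 genes whose mean signal lay within 0.5 of it on the log2 scale. The corresponding shares of all genes were 16.4% for Scnn1g and 29.1% for Scnn1b. Among the 206 probes printed 10 times, 16 had a mean difference at least as high as that of Scnn1a, 36 as high as that of Scnn1g and 60 as high as that of Scnn1b, each counting itself. Under every one of 9 alternative settings the subunits kept a positive difference, from 0.24 to 0.35 for Scnn1a, from 0.15 to 0.27 for Scnn1g and from 0.06 to 0.20 for Scnn1b.

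**Figure D3:**
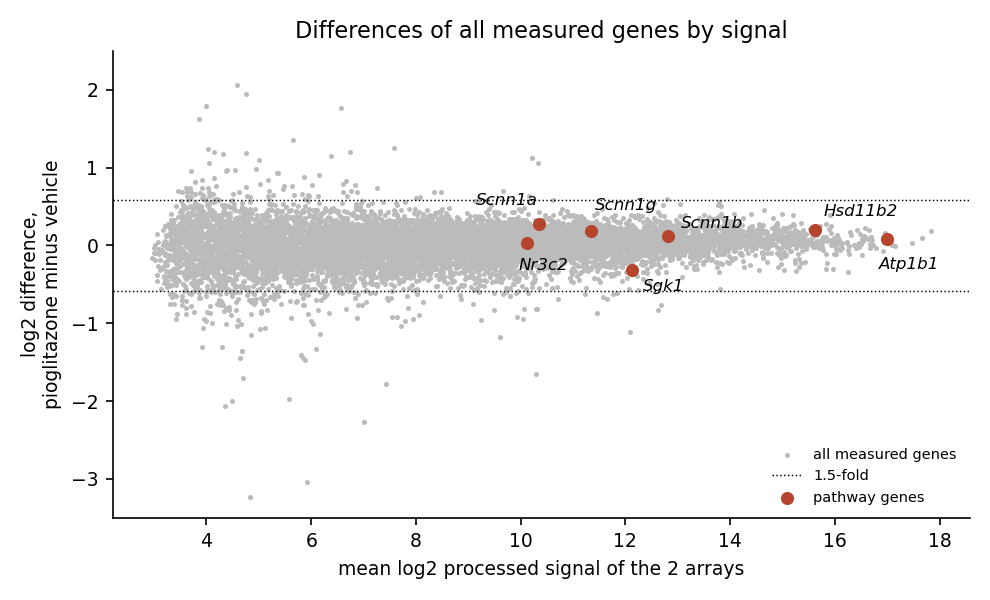
Log2 difference (pioglitazone minus vehicle) against the mean log2 processed signal of the 2 arrays for all 10484 measured genes in grey, with the 7 pathway genes in red and dotted lines at 1.5-fold. The pathway genes are bright and lie inside the dotted lines, with Scnn1a highest at 0.27 and Sgk1 lowest at -0.32.

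Upstream of the channel, the mineralocorticoid receptor and its guard enzyme were read from 1 spot each. Nr3c2 had a signal of 1150 with pioglitazone and 1070 with vehicle, and its difference of 0.03 turned slightly negative under cyclic loess, at -0.006. A second Nr3c2 probe, with signals of 6.87 and 7.06, was not well above background on either array. Hsd11b2, which protects the receptor from glucocorticoids, had a signal of 55300 with pioglitazone and 45800 with vehicle, 1.14-fold higher after scaling. It stayed positive under all 8 alternatives that include its spot, from 0.11 to 0.27.

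Sgk1 was the single gene of the pathway with a lower signal, at 4130 with pioglitazone and 4870 with vehicle, 1.25-fold lower after scaling. This kinase is induced by aldosterone and glucocorticoids, and by cell stress and serum in many cell types. Of all measured genes, 8.08% had a difference at most as high as that of Sgk1, and 3.39% of the 767 genes of similar signal did. It stayed negative under all 8 alternatives, from -0.36 to -0.24, and within 2 times its technical error of 0.20. The value comes from 1 spot and has no second probe behind it. Macrophage markers moved the same way, with negative differences in 9 of 9 measured genes, a median of -0.34, 2 genes past the criterion as lower and a summed signal of 20670 with pioglitazone and 22285 with vehicle. Fibroblast markers were negative in 6 of 7 measured genes, with a median of -0.35, 1 gene lower by the criterion and sums of 16793 with pioglitazone and 20385 with vehicle. Cd163 on the macrophage list and Postn on the fibroblast list were not well above background on either array. Principal cell markers were also negative in 7 of 8 measured genes, and urothelial markers in 6 of 6. Intercalated cell markers were positive in 8 of 9, proximal tubule markers in 10 of 10 and podocyte markers in 6 of 6. The part of these cells in the Sgk1 value was not tested, and in bulk tissue fewer cells of a type and less RNA per cell cannot be told apart.

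Atp1b1, the pump's beta subunit, had a signal of 138000 with pioglitazone and 124000 with vehicle. Its difference of 0.08 was close to the median of all genes and came to -0.002 under cyclic loess. The renal pump regulator Fxyd2 was near it at 0.13, with signals of 35600 with pioglitazone and 30900 with vehicle. Over 12 measured genes of the pump and its FXYD regulators, 5 were positive and 7 negative, with a median of -0.07 that changed sign between settings (-0.09 to 0.03). The criterion was met by 0 as higher and by 1 as lower. Fxyd5, a pump regulator of epithelia, was at -0.45 and Fxyd3 at -0.30.

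Proteases activate the channel by cutting its alpha and gamma subunits. Of 10 measured proteases and inhibitors, 4 were positive and 6 negative, with 0 past the criterion in either direction and a median of -0.04 that changed sign between settings (-0.08 to 0.04). The highest was Prss8, the channel-activating protease prostasin, with a signal of 43100 with pioglitazone and 34100 with vehicle, a difference of 0.26. Tmprss4, a membrane serine protease, was at 0.12. The urokinase gene Plau was at -0.35 and Serpine2, a serine protease inhibitor, at -0.51, with 2 of 2 probes negative. Furin, which cuts the subunits during their transport to the membrane, was at -0.09.

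Genes induced by mineralocorticoids or glucocorticoids did not share a direction. Their list also held the glucocorticoid receptor Nr3c1, which counts among the negative genes. Of 15 measured genes 7 were positive and 8 negative around a median of -0.04 that changed sign between settings (-0.05 to 0.04), and 1 met the criterion as lower and 0 as higher. This was Edn1, which encodes the peptide endothelin 1, a local inhibitor of sodium reabsorption in the collecting duct, at -0.61 with signals of 46.8 with pioglitazone and 67.6 with vehicle. Klf9, a transcription factor that follows steroid hormones, had the highest difference at 0.39, although its 2 measured probes had opposite signs. Sult1a1 was at 0.26 and Zbtb16 at -0.31. The classical targets Tsc22d3, a glucocorticoid-induced leucine zipper protein, Fkbp5, a chaperone of steroid receptors, and Per1, a clock gene, were at -0.13, 0.23 and -0.11. The glucocorticoid receptor Nr3c1 was at -0.05.

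Kinases, ligases and adaptors of the pathway had a median of 0.02 (-0.02 to 0.10 over settings) over 13 measured genes, 8 of them positive and 5 negative, and 0 met the criterion. Sgk2, a kinase related to Sgk1, was at 0.24 with both of its probes positive, and Pdpk1, which phosphorylates Sgk1, was at 0.17. Nedd4, the close relative of Nedd4l, was at -0.22 with both probes negative. Ywhab, an adaptor that binds phosphorylated Nedd4l, was at -0.38, but its 2 probes disagreed in sign. Wnk4, a kinase that steers salt transport in the distal tubule, was at 0.01.

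Other sodium transporters of the nephron, listed together with the thick ascending limb gene Umod, were spread around a median of 0.04 (-0.03 to 0.12 over settings). Of the 11 measured genes, 6 were positive, Umod at 0.10 included, 5 were negative and 0 met the criterion. The thiazide-sensitive cotransporter Slc12a3 had signals of 1080 with pioglitazone and 850 with vehicle, a difference of 0.27 like that of Scnn1a. The proton exchanger Slc9a2 was at 0.34, the glucose transporter Slc5a1 at 0.33, the bicarbonate transporter Slc4a7 at -0.34 and Slc4a8 at -0.50. Potassium channels of the distal nephron, which return or secrete potassium as sodium is reabsorbed, were positive in 5 of 6 measured genes with a median of 0.21, and 0 met the criterion. Kcnq1 was at 0.41, the basolateral subunit Kcnj16 at 0.33, the apical secretory channel Kcnj1 at 0.24 and Kcnmb4 at -0.34.

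The axis that controls aldosterone had a median of 0.21 over 8 measured genes (0.03 with normexp correction), of which 5 were positive, 3 were negative and 0 met the criterion. The angiotensin receptor Agtr1b was at 0.36 and the natriuretic peptide Nppa at 0.31, both with dim signals. The aldosterone synthase gene Cyp11b2, which acts in the adrenal gland, was not above background on either array. Plasma aldosterone is not among these data.

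Principal cells of the collecting duct carry the channel, as does the connecting tubule, and most principal cell markers had a lower signal with pioglitazone. Of 8 measured principal cell markers 7 were negative and 1 positive, with a median of -0.18 (-0.08 without grid bands 6 and 7 of the array) and 0 past the criterion, and their summed signal was 51129 with pioglitazone and 54748 with vehicle. The water channels Aqp2, Aqp3 and Aqp4 were at -0.34, -0.28 and -0.32, with all 4 measured Aqp4 probes negative, and the transcription factor Gata3 was at -0.42. The other measured markers lay nearer 0, with the vasopressin receptor Avpr2 at -0.08, Stc1 at -0.08, Hoxb7 at -0.01 and the transcription factor Tfcp2l1 at 0.15. The 2 measured probes of Tfcp2l1 disagreed in sign. Elf5 was the marker not above background. Markers of intercalated cells, which secrete acid or base and lie among the principal cells, had 8 positive differences among 9 genes, a median of 0.22 and a summed signal of 131735 with pioglitazone and 109078 with vehicle. Foxi1, their master transcription factor, was at 0.42, and the anion exchanger Slc26a4, also known as pendrin, at 0.25. Among 5 measured genes of the distal convoluted and connecting tubules the median was -0.01 (-0.07 to 0.13 over settings), with Klk1 at 0.46 and S100g at -0.41. Thick ascending limb markers had a median of 0.06 over 6 genes (-0.01 to 0.14 over settings) and proximal tubule markers one of 0.16 over 10, all of them positive. The part of these shifts in the channel subunit values was not tested.

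**Figure D4:**
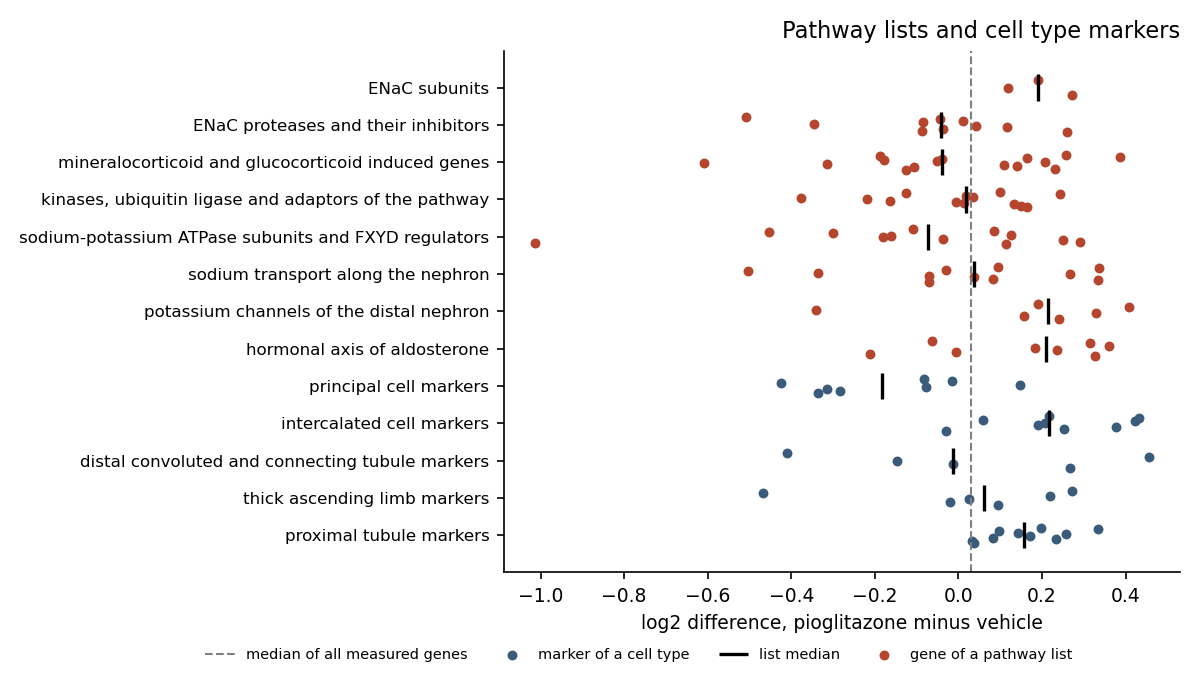
Log2 difference (pioglitazone minus vehicle) of each measured gene in pathway lists (red) and nephron cell type marker lists (blue), with the list median as a black bar and the median of all measured genes as a dashed line. The subunits have a median of 0.19 and principal cell markers one of -0.18, while most pathway lists straddle the dashed line.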

How the data were processed

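Per the submitters' processing notes and the file headers, Agilent Feature Extraction 10.7.3.1 made the deposited spot intensity values, with background subtracted and spatial trends removed within each array and no scaling between arrays. The authors' deposited value table holds the same intensity values at all 45018 features to within 0.5% (column medians 47.7 for pioglitazone and 46.8 for vehicle). The scanner's flags, other columns of 0 or 1, were used as given per the file headers. Control spots were left out, as were spots that either array flags as outliers. The log2 of the processed signal was averaged over spots of a probe, and each array's 75th percentile over probes was subtracted. A RefSeq table of rat genes (GRCr8) paired probe accessions with symbols and named 16959 of 40998 probes. A gene took its brightest probe and was measured if that probe was well above background on both arrays. Below this level a gene has only a bound, from the lowest signal well above background (7.16 with pioglitazone and 7.66 with vehicle). The technical error combines the software's errors of both spots and is not reduced for their number.

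The text names all members, Pparg and, of each gene list, up to 4 genes with the largest difference. Some genes that this rule picks are not reported here. Furin, Tsc22d3, Fkbp5, Per1, Nr3c1, Wnk4, Slc34a1 and Fxyd2 were named for their roles after their values were seen, as were the genes below background. Members and lists were chosen with earlier results of these data known. With 2 arrays there is 1 difference a gene, so no likeness of pattern between genes was computed. The number of arrays limits the precision. Alternatives changed the scaling, the background correction (normexp with an offset of 50), the probe rule, the flags, the fold threshold and the filter on dim probes. The calling code was run on simulated data with 200 changed genes. All simulated spots were unflagged and well above background, with no spread between animals. The run therefore checked the code and says nothing on the calls in these data. Python 3.11.15, pandas 2.3.3 and limma 3.58.1 were used.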

Additional observations from a re-analysis of the deposited data

How the results depend on the processing

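All 60 member differences recomputed over alternatives moved by less than the technical error, and 0 of the 7 members met the criterion under any alternative of scaling, correction, probe rule, flags or threshold. The count of subunit probes with every pioglitazone spot above every vehicle spot, 3 as reported, was 1 with quantile scaling, 1 with cyclic loess, 0 with normexp correction and 2 with flagged spots kept. The cause was not tested. Counts of all genes moved more. Against 83 higher and 178 lower, there were 130 and 117 in the unscaled value table, 17 and 30 at 2-fold, 132 and 222 without a filter on dim probes and 10 and 46 with normexp correction. The share of higher genes was 31.8% as reported, 44.6% with median scaling (107 higher and 133 lower), 52.6% in the unscaled table and 17.9% with normexp correction. Of 229 list medians recomputed, 6 moved by more than the median technical error, all of them in the acid-sensing channel, adrenal and urothelial lists. Normexp correction on median signals, the removal of the sixth and the seventh of 10 bands of grid rows, which hold the single spots of Nr3c2, Hsd11b2 and Sgk1, and the count of separated probes were chosen after seeing the data. Of genes read from 1 spot, 2.68% in those bands met the criterion in either direction, against 2.44% in the other bands. Normexp correction on mean signals and naming by a gene name column were not run, since the scanner output as given holds neither column. No paired analysis was possible because only 1 array represents each group.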

Other observations

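The acid-sensing channels, which belong to the same protein family as the epithelial sodium channel, were dim. Asic4 was at 0.47, with signals of 27.8 with pioglitazone and 19.0 with vehicle, and Asic1 at 0.27, with 134 and 105 and all 3 probes positive. Asic2 was at -0.15. Asic3 was well above background with vehicle alone, with signals of 5.65 with pioglitazone and 34.0 with vehicle, at least 5.01-fold lower with pioglitazone in 1 spot. Asic5 was not above background. The list had a median of 0.27 over 3 measured genes, with 0 past the criterion, and its median was -0.15 without a filter on dim probes.

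PPAR-gamma and its known targets, listed beside the pathway because pioglitazone acts on this receptor, were negative in 7 of 9 measured genes with a median of -0.09 (-0.01 in the unscaled table), and 1 met the criterion as lower. This was Ucp1, the uncoupling protein of brown fat, at -1.78 with signals of 95.3 with pioglitazone and 310 with vehicle. Pparg was at -0.29, with signals of 32.2 and 37.3, and Angptl4 at 0.22. Pdk4 was at -0.17, within its technical error of 0.37, with dim signals of 10.6 with pioglitazone and 11.3 with vehicle. Of the other marker lists, the median was -0.46 over 6 urothelial genes with 3 lower (-0.23 with normexp correction), -0.04 over 7 endothelial genes (-0.05 to 0.04 over settings), 0.27 over 6 podocyte genes and -0.09 over 5 adipocyte genes with 2 lower. These were Retn, the hormone resistin, at -2.27 with signals of 60.4 with pioglitazone and 276 with vehicle, and Cfd, the adipokine adipsin, at -1.17 with signals of 534 and 1140. Car3, a carbonic anhydrase of fat and muscle, was well above background in the vehicle pool only, with signals of 7.82 with pioglitazone and 38.0 with vehicle, at least 5.13-fold lower. Adipoq and Fabp4, also made by fat cells, were at -0.09 and -0.07. Urothelium can express the channel subunits too, and its part in their values was not tested. In the adrenal cortex list 2 genes were measured, of which Akr1b7 was higher at 1.12 and Hsd3b1 was at -0.33, and Cyp11b1 had signals of 1.42 with pioglitazone and 28.9 with vehicle, well above background in the vehicle pool only and at least 4.26-fold lower in the pioglitazone pool.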
